A study of Mus musculus with 12 samples.

Results

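The genes described here are 10 that control the passage of cells from G1 into S phase, out of 25774 genes to which transcripts of C2C12 libraries could be matched. They are a list of named genes: the D-type cyclins Ccnd1, Ccnd2 and Ccnd3, the cyclin-dependent kinase (CDK) inhibitors Cdkn1a, Cdkn1b, Cdkn2a and Cdkn2c, and the pocket proteins Rb1, Rbl1 and Rbl2. All 10 were found, and 9 passed the filter on low values. Cdkn2a did not, because it was listed at 0 in all 12 libraries.

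D-type cyclins are the regulatory subunits of the kinases CDK4 and CDK6, which phosphorylate the pocket proteins RB, p107 and p130 (the products of Rb1, Rbl1 and Rbl2). Unphosphorylated pocket proteins bind E2F transcription factors and repress the genes of DNA replication. The inhibitors p21 and p27 (Cdkn1a and Cdkn1b) act on several cyclin and CDK complexes, whereas p18 and p16 (Cdkn2c and one product of Cdkn2a) bind CDK4 and CDK6. Myoblasts leave the cell cycle before they fuse, and p21, RB and cyclin D3 are known for their part in that exit.

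C2C12 is an established mouse myoblast line that forms multinucleated fibres when serum is lowered. RNA with poly(A) tails was sequenced in 4 groups of 3 libraries. D0 siControl and D0 siKctd10 were undifferentiated cells, kept below confluence in DMEM with 10% FBS and given a non-targeting siRNA or 1 siRNA against Kctd10. D2 siControl and D2 siKctd10 had the same siRNAs and were moved to DMEM with 2% horse serum 24 h later. The labels give 48 h from siRNA to harvest for every sample, which leaves the time of harvest at D2 unclear. Day and medium changed together. A difference between D0 and D2, called differentiation below, therefore cannot be told apart from an effect of the medium and its serum. KCTD10 recruits substrates to ubiquitin ligases built on CUL3. A single siRNA sequence was used per arm, so an effect of the sequence other than through Kctd10 cannot be told apart from the knockdown. Nothing in the labels says that the 3 libraries of a group came from separate cultures, so p-values reflect the spread among these libraries alone, and that spread may be technical.

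The libraries held by estimate 12.51 to 18.08 read pairs (in units of 1000000) and 12023 to 12604 genes with at least 1 transcript per 1000000 (TPM). Kctd10 fell with its siRNA from 266 ± 7.32 to 23.1 ± 2.69 TPM at D0 and from 283 ± 6.77 to 32 ± 4.58 TPM at D2 (mean ± SD, n = 3 each). The summed TPM of 10 myoblast and myocyte markers was 618 to 651 in D0 siControl and 727 to 816 in D0 siKctd10. It was 3863 to 4204 in D2 siControl and 2704 to 3195 in D2 siKctd10. The label of a differentiating myoblast line was thus met, and at D2 the sum was lower in siKctd10 cells. Not every marker followed the sum. Myh3 had 324 ± 21.7 TPM in D2 siControl and 349 ± 229 in D2 siKctd10, with 612 in D2 siKctd10 3. The groups overlapped at D2 for Cdh15 (446 ± 31.2 and 410 ± 52.2 TPM), and those of Des met at 838 TPM (858 ± 26.4 and 713 ± 133). Acta1 had the largest mean of the 10 at D2, with 1376 ± 146 TPM in siControl and 909 ± 52.6 in siKctd10, and so weighed most in the sum. The 4 adipocyte markers were listed at 0 in every library. The 5 leukocyte, 4 endothelial and 4 neural markers summed to at most 2.55, 1.65 and 2.24 TPM, with Ptprc, Adgre1, Kdr and Gfap at 0.

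Promoters are shown for the genes at the centre of the results that have an entry in the RefSeq table used here (GRCm38.p6, the mm10 build of the files), each from 250 bases before to 50 bases after the start of transcription on the gene's own strand. Matches to 3 patterns were searched on both strands. The E2F-type pattern was TTTNNCGC, the E-box bound by MyoD-type factors was CAGNTG, and the p53-type pair was CATG, any 6 bases and CATG again, added after the sequences had been seen. Matches are in capitals. The first promoter is that of Rbl1, a gene that fell on differentiation. Both Cdkn1a starts in that table and the upstream start of Ccnd3 follow, genes which rose. A further deposited Cdkn1a transcript, Cdkn1a-203, starts at 29098207 and had no window there.
Rbl1 (chr2:157204485-157204784, minus strand): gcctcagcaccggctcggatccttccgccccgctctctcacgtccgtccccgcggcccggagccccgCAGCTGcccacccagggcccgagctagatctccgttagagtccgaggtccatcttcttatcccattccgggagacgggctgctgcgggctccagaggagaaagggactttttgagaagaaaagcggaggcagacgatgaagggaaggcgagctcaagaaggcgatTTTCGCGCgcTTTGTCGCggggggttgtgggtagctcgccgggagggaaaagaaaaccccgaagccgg
Cdkn1a, upstream start (chr17:29090729-29091028, plus strand): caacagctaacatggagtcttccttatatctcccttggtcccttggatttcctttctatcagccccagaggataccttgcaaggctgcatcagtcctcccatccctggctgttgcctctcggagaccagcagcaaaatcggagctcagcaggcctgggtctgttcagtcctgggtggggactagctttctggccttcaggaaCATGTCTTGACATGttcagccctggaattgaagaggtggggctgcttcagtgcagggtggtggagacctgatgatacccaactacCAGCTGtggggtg
Cdkn1a, downstream start (chr17:29093519-29093818, plus strand): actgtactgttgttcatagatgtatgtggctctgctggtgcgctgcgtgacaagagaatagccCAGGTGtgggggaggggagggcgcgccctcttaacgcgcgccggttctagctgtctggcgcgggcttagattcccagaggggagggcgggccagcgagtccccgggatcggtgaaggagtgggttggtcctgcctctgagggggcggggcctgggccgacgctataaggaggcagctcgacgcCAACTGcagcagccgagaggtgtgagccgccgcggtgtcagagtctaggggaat
Ccnd3 (chr17:47504801-47505100, plus strand): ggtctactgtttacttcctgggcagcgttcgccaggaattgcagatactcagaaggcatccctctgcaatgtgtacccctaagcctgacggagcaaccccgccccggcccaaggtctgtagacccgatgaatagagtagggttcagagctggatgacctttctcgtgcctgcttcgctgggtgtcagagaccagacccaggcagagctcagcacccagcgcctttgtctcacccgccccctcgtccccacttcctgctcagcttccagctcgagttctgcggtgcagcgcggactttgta

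The Rbl1 window held 2 E2F-type matches, beginning 18 and 8 bases before the start, and 1 E-box 183 bases before it. The upstream Cdkn1a window held a p53-type pair beginning 48 bases before the start and an E-box 37 bases after it. The downstream Cdkn1a window held E-boxes 187 and 4 bases before its start. The Ccnd3 window held none of the 3 patterns. Of 32851 promoter windows of the same length, 5.17% held the E2F-type pattern, 51.4% the E-box and 0.712% the p53-type pair. Windows of Cdkn1b, Cdkn2c and Rbl2 had no match, and each of the 2 Cdkn2a windows had 1 E2F-type match. Ccnd1, Ccnd2 and Rb1 had no entry, so matches and directions cannot be compared over all members. These matches describe the letters and were not tested as binding sites. The deposited transcripts gave the downstream Cdkn1a start (Cdkn1a-201) a TPM of 0 in every library.

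The guide strand of the Kctd10 siRNA is shown because its seed, bases 2 to 8 in capitals, could pair with transcripts other than Kctd10.
siKctd10 guide: uUAUCGUCagaauugcugg
The longest coding transcript of each of the 10 genes held 0 matches to these 7 bases, that of Kctd10 held 1, and 2.8% of 21877 genes held at least 1. With a shorter match of 6 bases, Rbl1 held 1 and no other member held any. No share over all genes was formed for the shorter match.

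Ccnd1 encodes cyclin D1, the D-type cyclin most tied to growth factors and serum. It lies at 144929931 to 144939925 on chromosome 7 (minus strand, GRCm38, as for every gene position given here). Its TPM was 517, 535 and 538 in D0 siControl, 574, 584 and 531 in D0 siKctd10, 144, 143 and 145 in D2 siControl, and 160, 170 and 148 in D2 siKctd10. Every D2 library lay far below every D0 library. On differentiation Ccnd1 had a log2 fold change of -1.87 in siControl cells (SE 0.07, limma adjusted p = 4.6e-08) and of -1.82 in siKctd10 cells (SE 0.07, limma adjusted p = 7.2e-08), the largest differences among the 9 tested genes. In bulk RNA, fewer cells expressing a gene and less RNA per cell cannot be told apart, here and below.

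Ccnd2 encodes cyclin D2 and lies at 127125162 to 127152193 on chromosome 6 (minus strand). Its TPM was 63.6, 65.9 and 75.1 in D0 siControl, 87, 91.3 and 91 in D0 siKctd10, 45.7, 47 and 49.2 in D2 siControl, and 53.1, 56.1 and 52.4 in D2 siKctd10. The siKctd10 libraries lay above the siControl libraries on both days, and D2 below D0 in both arms. On differentiation Ccnd2 fell by 0.52 on the log2 scale in siControl cells (SE 0.08, limma adjusted p = 0.00071) and by 0.73 in siKctd10 cells (SE 0.08, limma adjusted p = 7.9e-05).

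Ccnd3 encodes cyclin D3, the D-type cyclin known to accumulate in differentiating muscle cells. It lies at 47505051 to 47599691 on chromosome 17 (plus strand). Its TPM was 162, 148 and 183 in D0 siControl, 218, 222 and 191 in D0 siKctd10, 409, 391 and 374 in D2 siControl, and 309, 304 and 297 in D2 siKctd10. The knockdown libraries were higher than their controls at D0 and lower than their controls at D2, with no overlap on either day. Ccnd3 rose on differentiation by 1.25 on the log2 scale in siControl cells (SE 0.09, limma adjusted p = 3.4e-06) and by 0.53 in siKctd10 cells (SE 0.09, limma adjusted p = 0.0011).

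**Figure D1:**
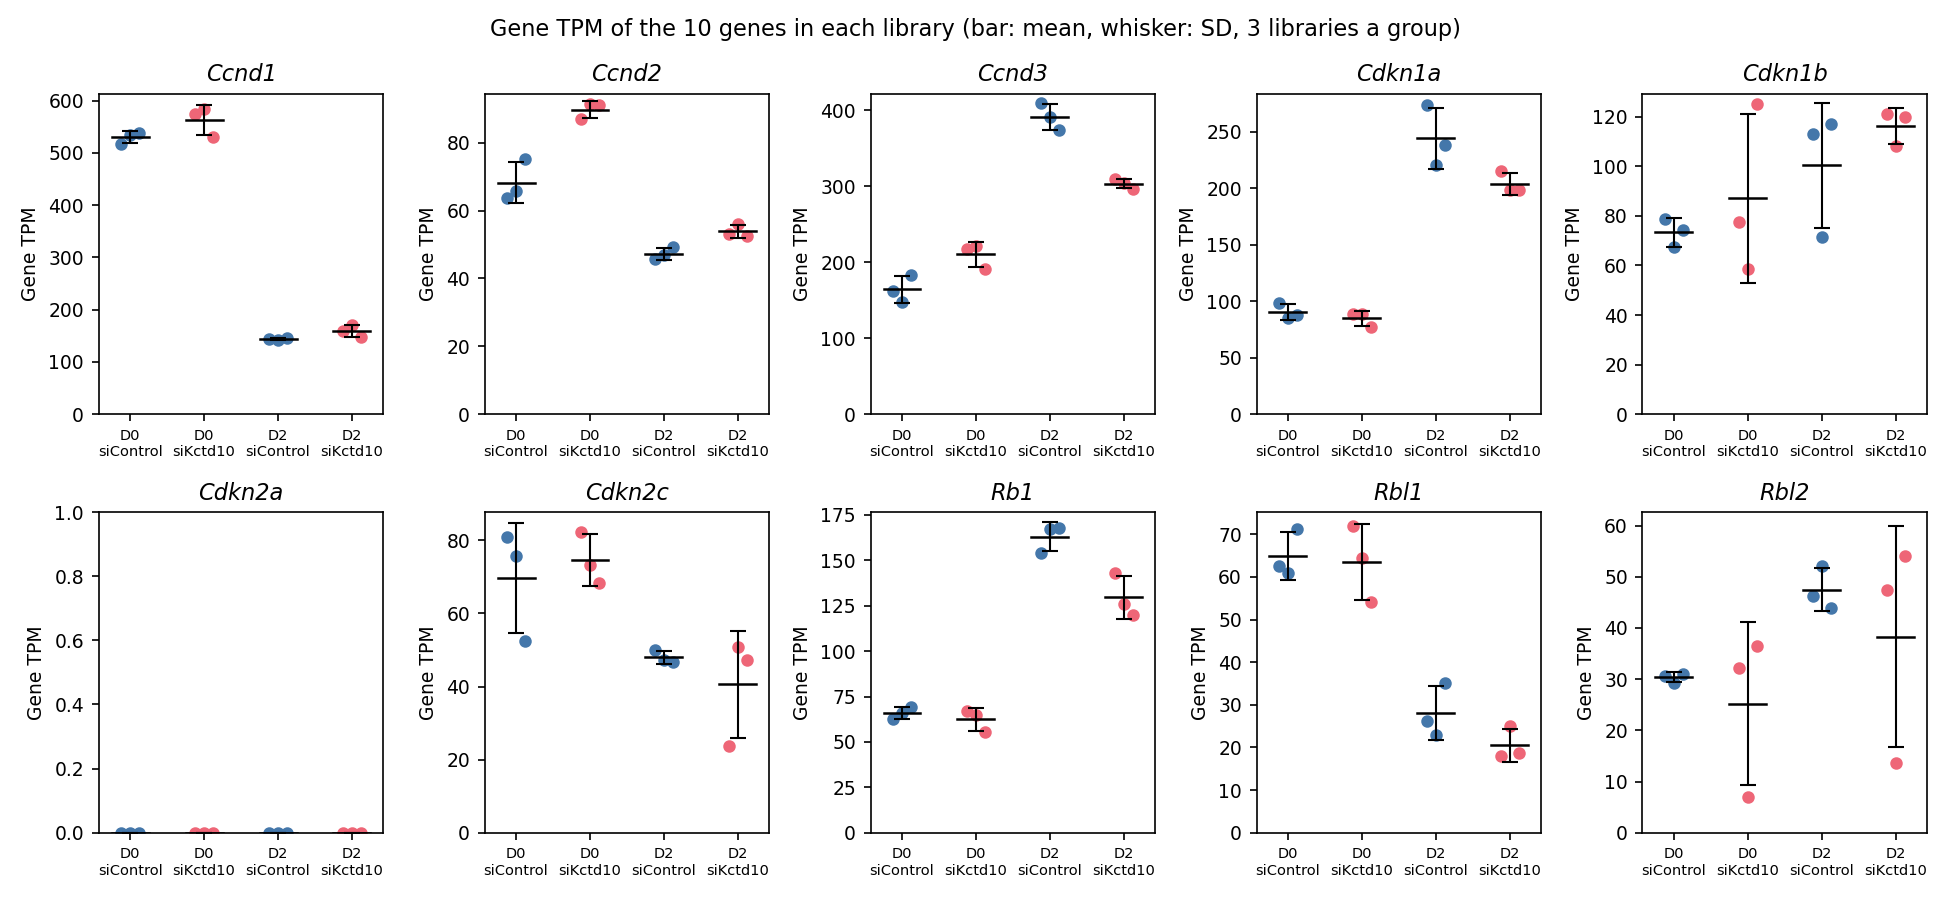
Gene TPM (vertical axes, each from 0) of the 10 genes in the 12 libraries; points are libraries, horizontal bars group means and whiskers the SD of 3 libraries. Ccnd1 drops from 517 to 584 TPM at D0 to 143 to 170 at D2, Ccnd3 reaches 374 to 409 in D2 siControl but 297 to 309 in D2 siKctd10, and Rbl2 has 1 low library in each siKctd10 group.

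Cdkn1a encodes p21, the inhibitor known to be induced by MyoD and by p53, and lies at 29090976 to 29100727 on chromosome 17 (plus strand). Its TPM was 98.1, 85.1 and 87.6 in D0 siControl, 88.6, 88.9 and 77.4 in D0 siKctd10, 274, 221 and 238 in D2 siControl, and 215, 198 and 198 in D2 siKctd10. All 6 D2 libraries exceeded all 6 D0 libraries. Cdkn1a rose by 1.42 on the log2 scale in siControl cells (SE 0.1, limma adjusted p = 3.1e-06) and by 1.25 in siKctd10 cells (SE 0.1, limma adjusted p = 8.1e-06). The transcript that carried the estimate was Cdkn1a-202, which starts in the upstream window, in 10 libraries, with 76.1 to 273 TPM. In D0 siControl 1 and 2 it was listed at 0 and Cdkn1a-203 held 98.1 and 85.1 TPM, so the split between transcripts was unstable where the gene total was not.

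Cdkn1b encodes p27 and lies at 134920401 to 134925513 on chromosome 6 (plus strand). Its TPM was 78.6, 67.3 and 74.1 in D0 siControl, 77.4, 58.7 and 125 in D0 siKctd10, 113, 71.5 and 117 in D2 siControl, and 121, 108 and 120 in D2 siKctd10. The groups overlapped in all 4 comparisons of pairs. No comparison passed the test, with a log2 difference between days of 0.42 (SE 0.26, limma adjusted p = 0.25) in siControl cells and 0.48 (SE 0.26, limma adjusted p = 0.18) in siKctd10 cells. The high library, D0 siKctd10 3, was the only one in which Cdkn1b-201 was above 0 (83.3 TPM). Without it the log2 difference between days in siKctd10 cells was 0.78 (limma adjusted p = 0.02).

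Cdkn2c encodes p18, an inhibitor of CDK4 and CDK6, and lies at 109660876 to 109667189 on chromosome 4 (minus strand). Its TPM was 80.8, 75.6 and 52.5 in D0 siControl, 82.4, 73.2 and 68.4 in D0 siKctd10, 50, 47.3 and 46.7 in D2 siControl, and 23.8, 50.8 and 47.2 in D2 siKctd10. D2 lay below D0 in both arms without overlap. It fell in siKctd10 cells by 0.93 on the log2 scale (SE 0.26, limma adjusted p = 0.019), and the difference in siControl cells, -0.51 (SE 0.26, limma adjusted p = 0.17), did not pass. The 2 falls were not shown to differ (interaction -0.43, SE 0.37, limma adjusted p = 0.78). The siKctd10 call was lost without D0 siKctd10 1 (-0.86, limma adjusted p = 0.062) and when only the 2 siKctd10 groups were fitted (-0.93, limma adjusted p = 0.07). Without D2 siKctd10 1, the low library, it was kept at a smaller value (-0.59, limma adjusted p = 0.029), and the siControl difference then passed as well (-0.51, limma adjusted p = 0.033).

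Cdkn2a, which encodes p16 and p19ARF and lies at 89274471 to 89294653 on chromosome 4 (minus strand), was listed at 0 for both of its deposited transcripts in all 12 libraries. No fold change was formed for it.

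Rb1 encodes RB, the pocket protein that binds the activating E2F factors, and lies at 73183673 to 73325822 on chromosome 14 (minus strand). It has a single deposited transcript, with TPM of 62.5, 66.2 and 69.1 in D0 siControl, 67.2, 65.1 and 55.3 in D0 siKctd10, 154, 167 and 168 in D2 siControl, and 143, 126 and 120 in D2 siKctd10. The D2 libraries lay above the D0 libraries, and at D2 the knockdown libraries were all lower than their controls. Rb1 rose by 1.29 on the log2 scale in siControl cells (SE 0.1, limma adjusted p = 5.5e-06) and by 1.04 in siKctd10 cells (SE 0.1, limma adjusted p = 2.7e-05).

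Rbl1 encodes p107, a pocket protein found mainly in cycling cells, and lies at 157145893 to 157204534 on chromosome 2 (minus strand). Its TPM was 62.5, 61 and 71.3 in D0 siControl, 71.9, 64.5 and 54.2 in D0 siKctd10, 26.2, 23 and 35.1 in D2 siControl, and 18, 25 and 18.6 in D2 siKctd10. D2 was below D0 in both arms, opposite in direction to Rb1. Rbl1 fell by 1.2 on the log2 scale in siControl cells (SE 0.18, limma adjusted p = 0.00057) and by 1.59 in siKctd10 cells (SE 0.18, limma adjusted p = 9.3e-05).

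Rbl2 encodes p130, the pocket protein of resting and differentiated cells, and lies at 91070057 to 91123844 on chromosome 8 (plus strand). Its TPM was 30.7, 29.3 and 31.1 in D0 siControl, 32.2, 6.96 and 36.4 in D0 siKctd10, 46.3, 52.2 and 44 in D2 siControl, and 47.4, 13.6 and 54 in D2 siKctd10. The 3 D2 siControl libraries all lay above the 3 D0 siControl libraries, while library 2 of each siKctd10 group stood far below the other 2. With all libraries the log2 difference between days was 0.62 in siControl cells (SE 0.61, limma adjusted p = 0.48) and 0.66 in siKctd10 cells (SE 0.61, limma adjusted p = 0.45). Without both siKctd10 libraries numbered 2, a setting chosen after seeing the data, it was 0.62 (SE 0.11, limma adjusted p = 0.0028) and 0.55 (SE 0.13, limma adjusted p = 0.017), so that Rbl2 passed in both arms. In siControl cells it also passed when only the 2 siControl groups were fitted (0.62, SE 0.09, limma adjusted p = 0.0049).

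The last exon of Rbl2-201, the only Rbl2 transcript above 0, separated those 2 libraries from the rest. This exon of 1569 bases had a mean deposited coverage of 0.0118 reads per base in D0 siKctd10 2 and 0.171 in D2 siKctd10 2, against 80.3 to 148 in the other 10 libraries. The other 21 exons together had 14.8 and 27.4 reads per base in those 2 libraries, within the 12.2 to 29.2 of the rest. In each library 12 to 15 of the 22 exons were listed at a coverage of 0. Exons of Rbl2 share 418 bases with Aktip on the opposite strand, whose TPM was 28.8 in D0 siKctd10 2 and 69.3 in D2 siKctd10 2, against 5.03 to 53.8 in the other libraries. Whether the reads of the last exon were assigned elsewhere was not tested.

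**Figure D2:**
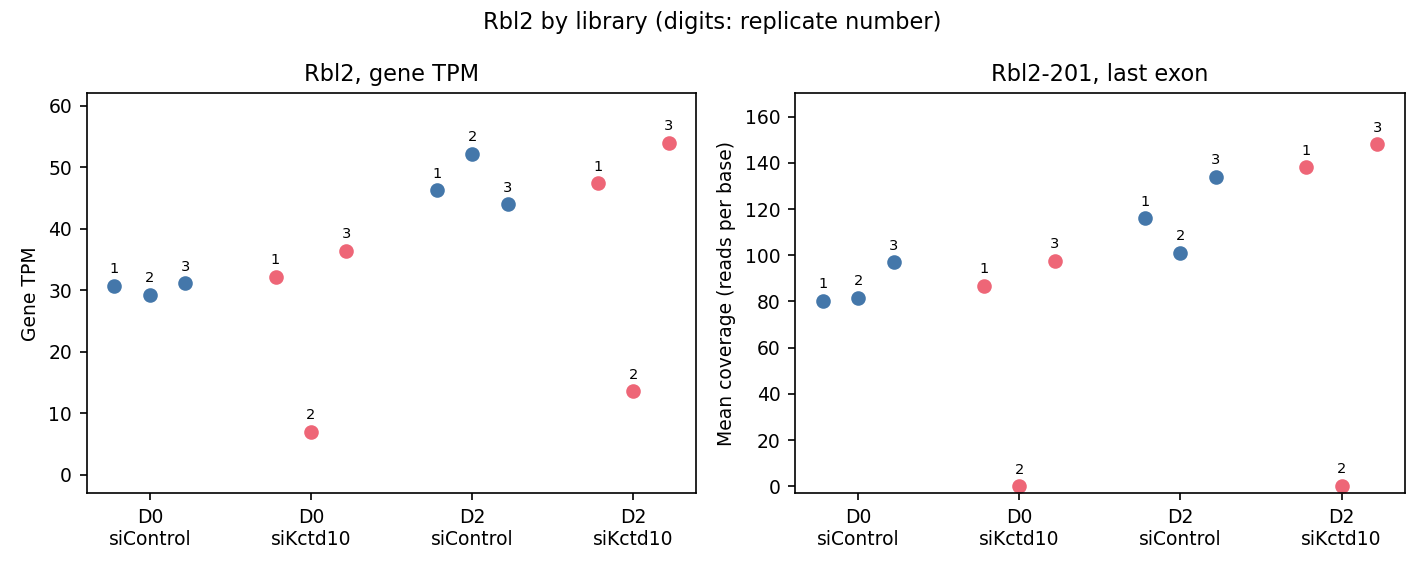
Rbl2 gene TPM (left) and the mean deposited coverage of the last exon of Rbl2-201 in reads per base (right) for each library, with digits giving the replicate number within each group. The libraries numbered 2 of both siKctd10 groups sit at 6.96 and 13.6 TPM and near 0 coverage, where the other 10 libraries have 80.3 to 148 reads per base.

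Between D0 and D2, 6 of the 9 tested genes passed in siControl cells: Ccnd3, Cdkn1a and Rb1 rose and Ccnd1, Ccnd2 and Rbl1 fell. Over all 13076 genes tested, limma called 35.5% in either direction, 21.4% higher and 14.0% lower. In siKctd10 cells the same 3 genes rose and 4 fell, Cdkn2c being the added one, where 36.4% of all genes were called, 23.1% higher and 13.3% lower. The groups did not overlap for 8 of the 9 genes in siControl cells and 7 of 9 in siKctd10 cells, against 52.3% and 48.4% of all genes. The median log2 difference of the 9 genes was 0.42 and 0.48, against 0.091 and 0.118 over all genes. Each family thus held members that rose and members that fell or did not pass. Wherever groups did not overlap, an exact permutation test (two-sided) returned 0.1, its smallest possible p with 3 libraries against 3.

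**Figure D3:**
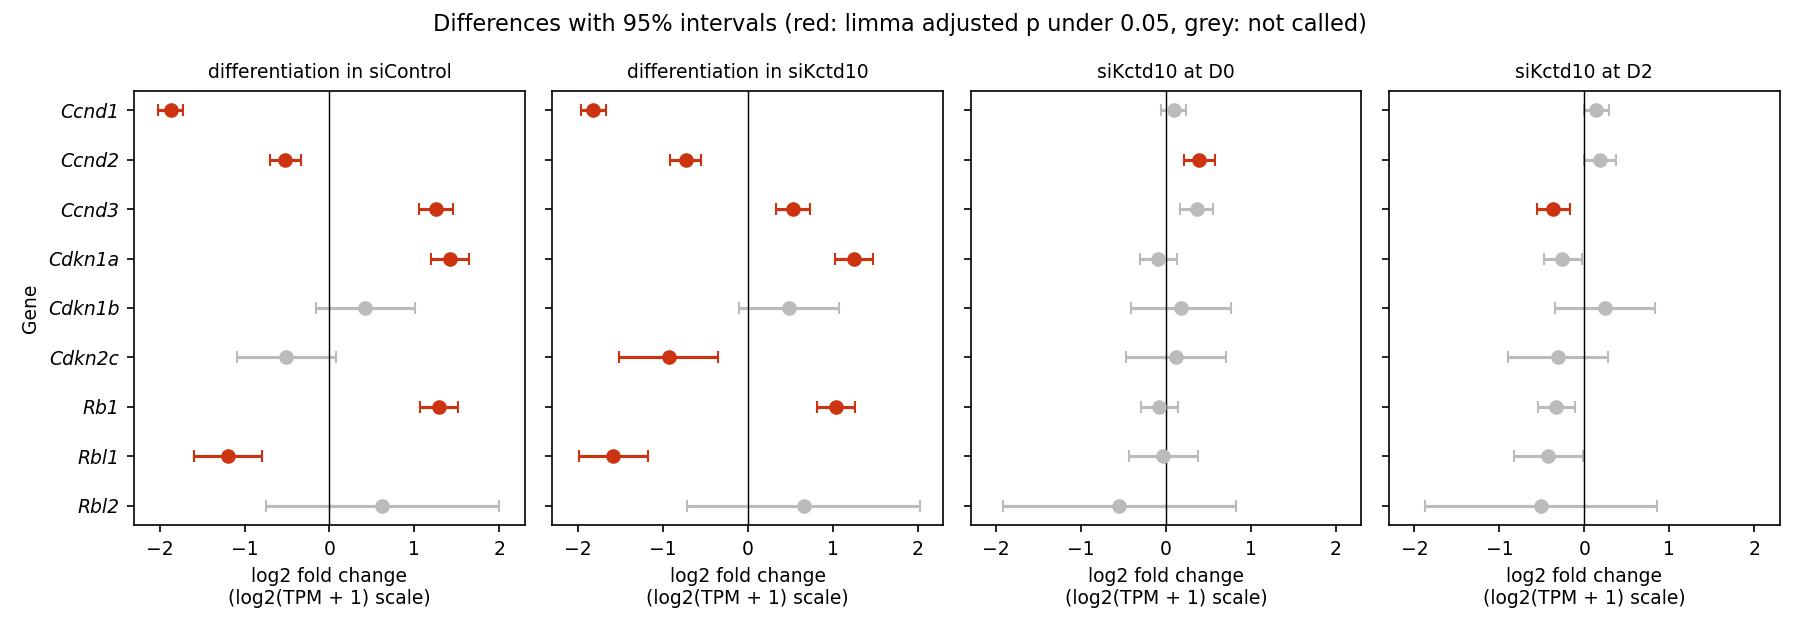
Log2 fold changes on the log2(TPM + 1) scale with 95% intervals from limma for the 9 tested genes in 4 comparisons; red points passed an adjusted p of 0.05 and grey points did not. Differences between days reach -1.87 (Ccnd1) and 1.42 (Cdkn1a), while the differences between siRNAs that passed are 0.39 (Ccnd2 at D0) and -0.37 (Ccnd3 at D2).

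TPM is scaled by transcript length, so levels can be set against each other. In D0 siControl the order was Ccnd1 (530 ± 11.5 TPM), Ccnd3 (164 ± 17.4) and Cdkn1a (90.3 ± 6.87), followed by Cdkn1b, Cdkn2c, Ccnd2, Rb1 and Rbl1 at group means of 64.9 to 73.3, which did not differ beyond their spread, and Rbl2 (30.4 ± 0.947). In D2 siControl it was Ccnd3 (391 ± 17.3), Cdkn1a (244 ± 27.3), Rb1 (163 ± 8.09), Ccnd1 (144 ± 1) and Cdkn1b (101 ± 25.4), followed by Cdkn2c, Rbl2 and Ccnd2 at 47.3 to 48, again within their spread, and Rbl1 (28.1 ± 6.24; SD, n = 3 throughout).

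The make-up of each family therefore shifted between the days. Among the inhibitors Cdkn1a had the largest mean share on both days, 38.8% ± 1.89 in D0 siControl and 62.3% ± 2.91 in D2 siControl (SD, n = 3). Ccnd1 held 69.5% ± 1.9 of D-type cyclin TPM in D0 siControl and 24.7% ± 0.709 in D2 siControl, while Ccnd3 went from 21.5% ± 1.58 to 67.1% ± 1.26 (SD, n = 3). In siKctd10 cells Ccnd1 held 65.2% ± 0.115 and 30.8% ± 1.15 on the same days (SD, n = 3). The Ccnd1 share ranged from 24.1 to 25.5% in D2 siControl and from 29.7 to 32.0% in D2 siKctd10, with no overlap. The summed TPM of the D-type cyclins was 763 ± 29 in D0 siControl, 863 ± 44.4 in D0 siKctd10, 582 ± 15 in D2 siControl and 516 ± 17.2 in D2 siKctd10 (SD, n = 3). Among pocket proteins Rb1 held 40.9% ± 1.22 in D0 siControl and 68.3% ± 0.551 in D2 siControl, and Rbl1 went from 40.2% ± 1.31 to 11.8% ± 2.35 (SD, n = 3). The ratio of summed D-type cyclin TPM to summed inhibitor TPM was 2.88 to 3.71 in D0 siControl and 1.37 to 1.71 in D2 siControl, and it was 3.00 to 4.07 and 1.36 to 1.49 in the siKctd10 groups, which overlapped their controls on both days. These shares and sums are descriptions of RNA and were not tested. Those of the pocket proteins include Rbl2, whose level is less certain.

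**Figure D4:**
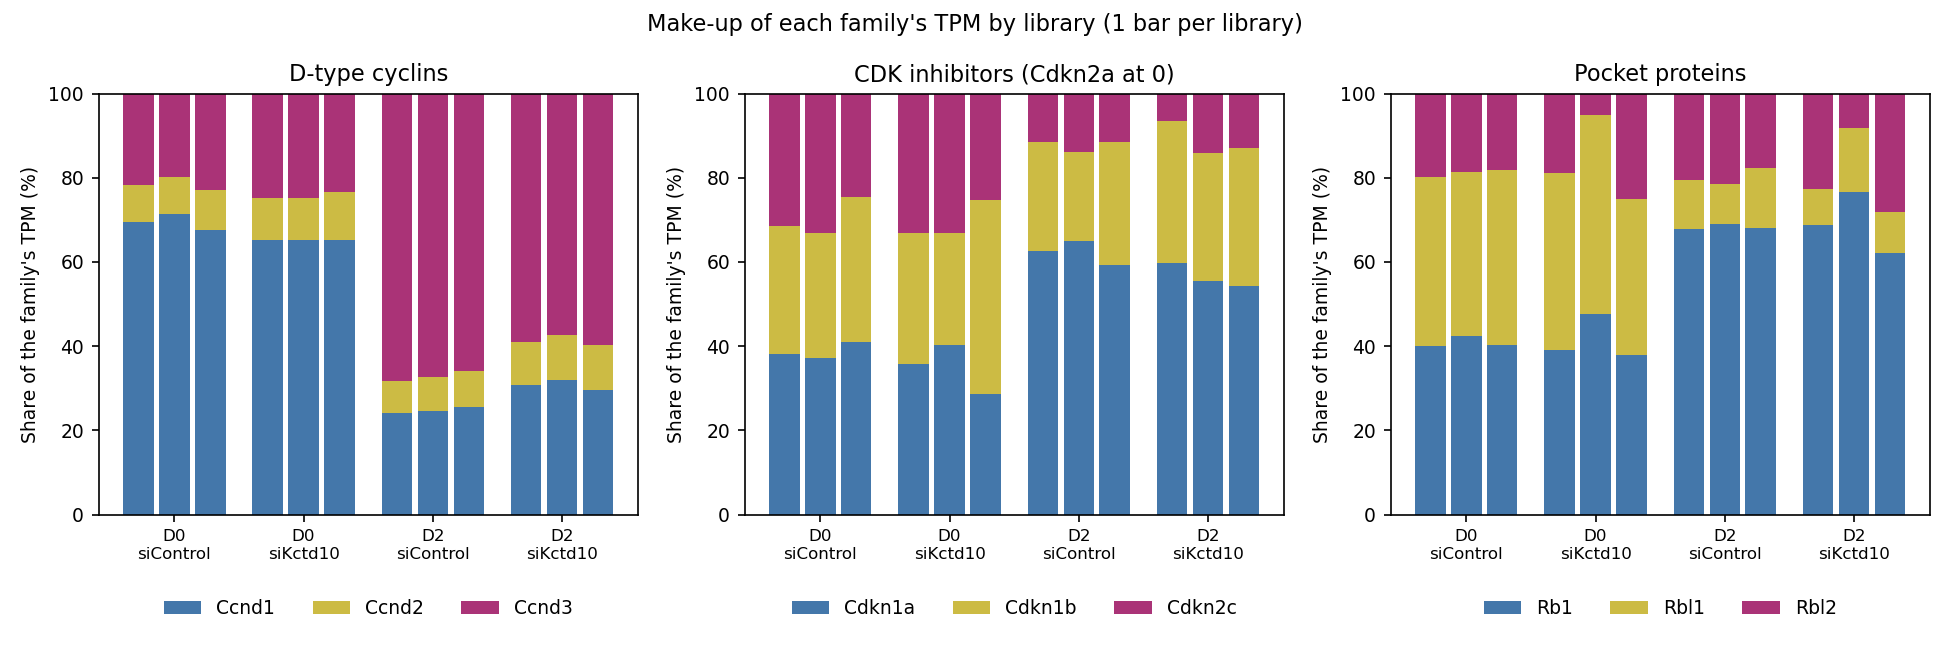
Share of each family's summed TPM (percent, vertical axes from 0 to 100) taken by its members, with 1 bar per library and 3 libraries per group. Ccnd1 takes 67.6 to 71.4% of D-type cyclin TPM in D0 siControl and 24.1 to 25.5% in D2 siControl, and Rb1 takes 67.9 to 68.9% of pocket protein TPM in D2 siControl.

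At D0 the groups of both siRNAs overlapped for most of these genes, which does not show equal levels. Ccnd2 was the only one of the 9 to pass, higher by 0.39 on the log2 scale (SE 0.08, 95% interval 0.21 to 0.58, limma adjusted p = 0.036), where 2.45% of all genes were called and 1.48% were called higher. Groups did not overlap for 2 of 9 genes, Ccnd2 and Ccnd3, against 23.2% of all genes. An unadjusted p under 0.05 was reached by 2 of the 9, against 15.8% of all genes. Ccnd3 differed by 0.36 (SE 0.09, limma adjusted p = 0.074) and did not pass. The intervals of Cdkn1a (-0.31 to 0.13), Rb1 (-0.30 to 0.14) and Ccnd1 (-0.06 to 0.23) included 0. On leaving out 1 library at a time, the difference ran from -0.95 to 0.17 for Rbl2 and from -0.12 to 0.42 for Cdkn1b. A level near control was thus not shown for either gene. The call on Ccnd2 was close to the threshold: it was lost on leaving out any 1 of 10 of the 12 libraries, all but D0 siControl 3 and D2 siKctd10 3 (0.35 to 0.47, limma adjusted p from 0.03 to 0.13 over the 12 settings), and when only the D0 groups were fitted (limma adjusted p = 0.18).

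At D2 the knockdown cells had less Ccnd3 RNA, by 0.37 on the log2 scale (-0.37, SE 0.09, 95% interval -0.56 to -0.17, limma adjusted p = 0.047), the 1 gene of the 9 to pass. Over all genes 4.75% were called and 1.92% were called lower. An unadjusted p under 0.05 was reached by 5 of the 9, against 19.2% of all genes. The groups did not overlap for 5 of 9 genes, against 28.4% of all genes. These were Ccnd3, Rb1 (-0.33, SE 0.1, limma adjusted p = 0.097) and Cdkn1a (-0.26, SE 0.1, limma adjusted p = 0.2), all lower in siKctd10, and Ccnd2 (0.18, SE 0.08, limma adjusted p = 0.25) and Ccnd1 (0.14, SE 0.07, limma adjusted p = 0.27), both higher. Rb1 passed when libraries were rescaled by median ratio (-0.42, limma adjusted p = 0.026) and with voom (-0.41, limma adjusted p = 0.036). The median difference over all genes was 0.079. Across alternatives the difference ran from 0.09 to 0.21 for Ccnd2 and from 0.05 to 0.2 for Ccnd1. The call on Ccnd3 was lost without any 1 of 9 of the 12 libraries, the 6 D2 libraries, D0 siControl 1 and D0 siKctd10 1 and 2 (-0.40 to -0.33, limma adjusted p from 0.032 to 0.14 over the 12 settings). In all it was lost in 15 of 22 alternatives, among them a pseudocount of 0.1 (limma adjusted p = 0.053), no filter (0.054) and only the D2 groups (0.055). The muscle marker sums given above were also lower in these libraries, and Myog, the factor that drives terminal differentiation, fell by 0.75 on the log2 scale (SE 0.14, limma adjusted p = 0.016), a call lost in 5 of 22 alternatives (-0.77 to -0.66, adjusted p up to 0.065). Their part in the Ccnd3 difference was not tested.

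The difference between both siRNA effects was tested as an interaction. For Ccnd3 the siKctd10 effect at D2 minus that at D0 was -0.72 on the log2 scale (SE 0.13, 95% interval -1.0 to -0.44, limma adjusted p = 0.034). Limma called 0.742% of all genes in either direction, and Ccnd3 was the only one of the 9. Equally, Ccnd3 rose less on differentiation in siKctd10 cells than in siControl cells, by this same amount. Ccnd2 (-0.21, SE 0.11, limma adjusted p = 0.6), Rb1 (-0.25, SE 0.14, limma adjusted p = 0.61), Cdkn1a (-0.17, SE 0.14, limma adjusted p = 0.77) and Ccnd1 (0.06, SE 0.09, limma adjusted p = 0.9) did not pass. The Ccnd3 call was lost without any 1 of 10 of the 12 libraries, all but D0 siControl 3 and D0 siKctd10 3 (-0.80 to -0.65, limma adjusted p from 0.024 to 0.089 over the 12 settings), and in 13 of 21 alternatives in all. Ccnd3-202 held most of the gene's TPM in every library. Ccnd3-215 held 72.3 TPM in D2 siControl 1 and 46.6 in D2 siKctd10 1 and at most 1.31 elsewhere. Exons of Ccnd3 share 359 bases with Bysl on the opposite strand, which had 12.2 to 34 TPM.

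The genes around this switch were described from 7 lists. Between days, limma called 35.5% of all genes in siControl cells (21.4% higher, 14.0% lower). In siKctd10 cells it called 36.4% (23.1% higher, 13.3% lower). Between siRNAs it called 2.45% at D0 and 4.75% at D2. The counts of each list below compare with these shares. Among 12 kinase partners and later cyclins, none rose and 3 fell on differentiation in siControl cells: Ccne1, which drives S phase entry (-1.95, SE 0.11, limma adjusted p = 7.6e-07), the mitotic kinase Cdk1 (-1.26) and Ccna2 (-1.21). In siKctd10 cells 5 fell, led by Ccne1 (-1.75), Ccne2 (-1.52) and Cdk1 (-1.37). Medians were -0.55 and -0.67. The kinases bound by D-type cyclins did not pass in siControl cells, with log2 differences of -0.39 for Cdk4 (921 TPM in D0 siControl, 718 in D2 siControl) and 0.16 for Cdk6 (90.8 and 102 TPM). No gene of this list passed between siRNAs with limma on the TPM as deposited. Ccna2, which had differences of -0.35 at D0 and -0.31 at D2, passed on both days after median-ratio scaling (-0.41 and -0.40, limma adjusted p = 0.023 and 0.015) and with voom (-0.43 and -0.39, limma adjusted p = 0.026 and 0.048). At an unadjusted p under 0.05 there were 3 of the 12 at D0 and 2 at D2, where 15.8% and 19.2% of all genes reached that threshold, the shares to which the same counts below compare.

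Among the other CDK inhibitors, Cdkn1c (p57) rose in both arms (1.5 and 1.25), from 2.76 to 9.57 TPM in siControl cells. Cdkn2d (p19INK4d) fell by 0.58 and 0.62, and Cdkn3, a CDK phosphatase, fell by 1.18 and 0.89. Cdkn2b was listed at 0 in all libraries. The Cdkn2d groups overlapped in siKctd10 cells. Its call was lost in 5 of 22 alternatives in siControl cells, each the loss of 1 library of the arm, all but D2 siControl 1 (-0.64 to -0.53, limma adjusted p up to 0.097), and in 6 in siKctd10 cells (-0.68 to -0.50, limma adjusted p up to 0.092), among them the loss of D0 siKctd10 1 or 2 or of D2 siKctd10 1 or 3. The Cdkn3 call in siKctd10 cells was lost in 2 (limma adjusted p up to 0.09). None of them passed between siRNAs with limma or voom, and 1 at D0 and 0 at D2 had an unadjusted p under 0.05.

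Of 10 E2F and DP factor genes, which encode the partners of pocket proteins, 3 fell in siControl cells, E2f7 (-0.91), E2f8 (-0.71) and E2f4 (-0.43). The same 3 fell in siKctd10 cells (-1.41, -0.89 and -0.37) and Tfdp2 rose (1.56). The E2f7 call in siControl cells was lost without D0 siControl 1 (-0.70, limma adjusted p = 0.063). Tfdp2 stood at 1.52 TPM in D0 siKctd10 2 against 6.53 and 6.95 in the other D0 siKctd10 libraries, and its difference was 1.02 without that library (limma adjusted p = 0.035). Its call was lost without D2 siKctd10 2 (1.3, limma adjusted p = 0.07), without both libraries numbered 2 (0.77, limma adjusted p = 0.085) and with only the 2 siKctd10 groups (1.56, limma adjusted p = 0.073). E2f1, an activating E2F, had differences of -0.62 and -0.57 that did not pass. None of the 10 passed between siRNAs with limma or voom over all libraries, and 2 at D0 and 4 at D2 had an unadjusted p under 0.05. With only the D2 groups E2f7 passed (-0.76, limma adjusted p = 0.035). Of 8 genes of the MuvB complex, which joins Rbl1 or Rbl2 products to repress cell cycle genes, and its MYB and FOXM1 partners, 1 rose and 3 fell in each arm. Mybl2 (-1.95 and -1.80), Lin9 (-1.32 and -1.15) and Foxm1 (-1.28 and -1.41) fell, and Rbbp4, a histone-binding subunit, rose (0.53 and 0.58). None of the 8 passed between siRNAs with limma or voom, and none had an unadjusted p under 0.05 on either day.

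The E2F target genes of S phase had the most calls by number, while all 3 tested other CDK inhibitors were called in both arms. Of the 20 E2F target genes, 18 fell and none rose in siControl cells (median -1.61). In siKctd10 cells 17 of them fell and none rose (median -1.37). The largest falls in siControl cells were those of Cdc45, a subunit of the replicative helicase (-2.37, SE 0.62, limma adjusted p = 0.014), Mcm5 (-2.32, SE 0.16) and Mcm3 (-2.06, SE 0.14), also helicase subunits. The Cdc45 call was lost with a pseudocount of 0.1 (-2.78, SE 1.23, limma adjusted p = 0.11). With siKctd10, 1 of the 20 passed on each day, where 2.45% of all genes were called at D0 and 4.75% at D2. An unadjusted p under 0.05 was reached by 3 of the 20 at D0 and 4 at D2. Mcm5 fell at D0 from 83.5, 68.6 and 87.6 to 38.9, 52.6 and 51.4 TPM (-0.74, SE 0.16, limma adjusted p = 0.047), a call that was lost in 17 of 22 alternatives, including leaving out any 1 D0 library (-0.84 to -0.60, adjusted p up to 0.16). Rrm1, a subunit of ribonucleotide reductase, was higher at D2, with 63.3, 70.6 and 68.7 TPM in siControl and 128, 112 and 105 in siKctd10 (0.75, SE 0.1, limma adjusted p = 0.0037).

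**Figure D5:**
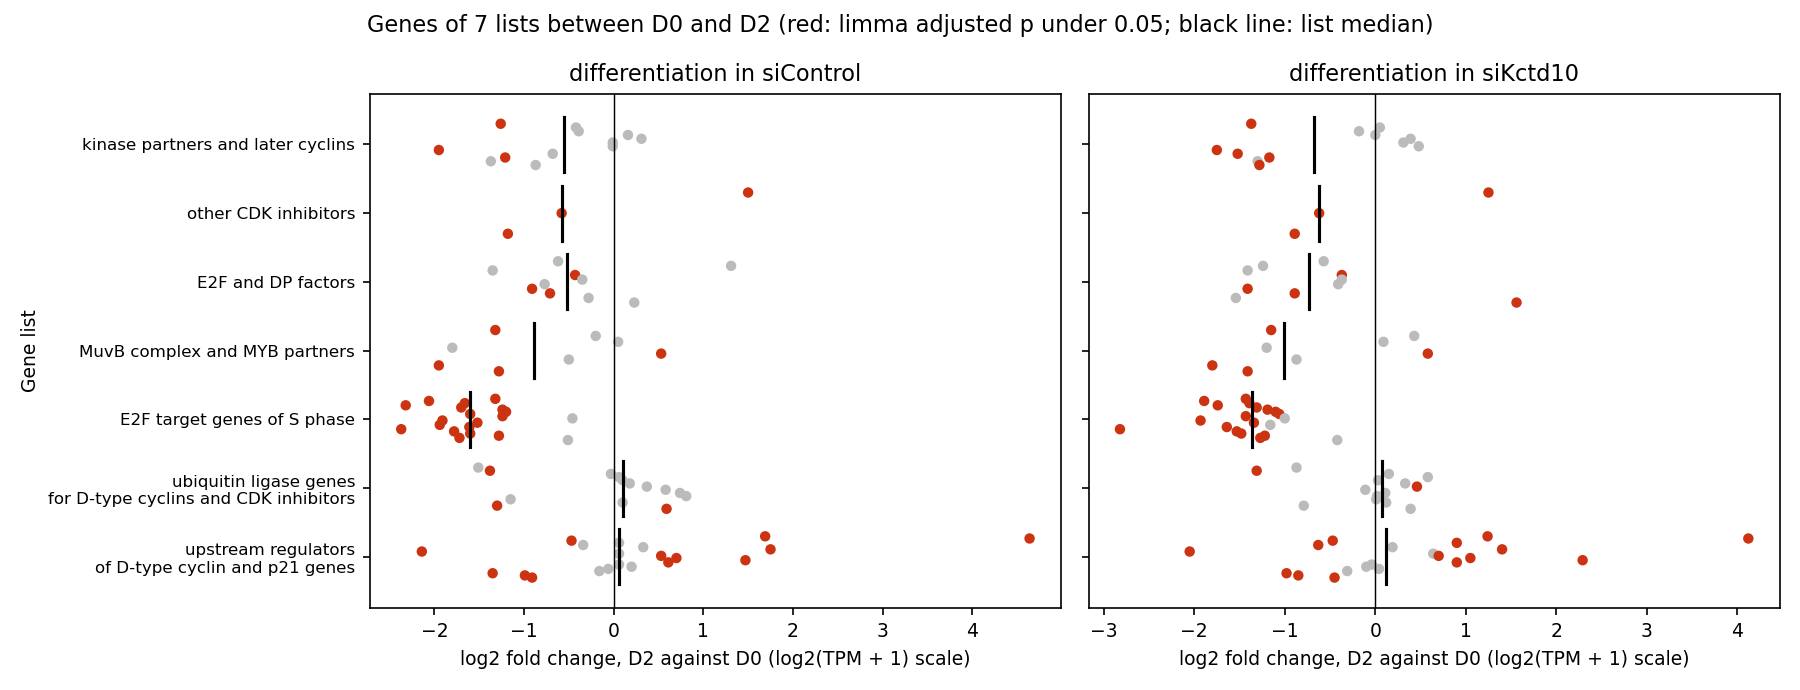
Log2 fold changes between D2 and D0 on the log2(TPM + 1) scale (horizontal axes) for the genes of 7 lists in siControl (left) and siKctd10 cells (right); red points passed a limma adjusted p of 0.05, grey points did not, and black lines are list medians. The E2F target genes of S phase have medians of -1.61 and -1.37, whereas the ubiquitin ligase genes have medians of 0.10 and 0.07.

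Of 14 genes of ubiquitin ligases that act on D-type cyclins and CDK inhibitors, 1 rose and 2 fell in siControl cells. In siKctd10 cells 1 rose and 1 fell. The shares called over all genes were 35.5% and 36.4%, so the list did not stand out. Cks1b, the cofactor of SKP2 in p27 degradation, fell in both (-1.38 and -1.31). Dtl, the CUL4 adaptor that targets p21 in S phase, fell in siControl cells (-1.30, SE 0.42, limma adjusted p = 0.038). Rnf123, a p27 ligase subunit, rose in siControl cells (0.59), and Fbxo31, an adaptor for cyclin D1, rose in siKctd10 cells (0.46). Skp2 itself had differences of -1.51 and -0.87 that did not pass. Its TPM was 29.8, 135 and 32.6 in D0 siControl, and that of Cul4b, also not called, was 4.67, 65.3 and 66.5. Whether such spread within a group kept genes of the lists from passing was not tested. The calls on Dtl, Rnf123 and Fbxo31 were lost in 12 of 22, 14 of 21 and 8 of 22 alternatives, with limma adjusted p up to 0.13, 0.15 and 0.094. None of the 14 passed between siRNAs with limma or voom, and 3 at D0 and 1 at D2 had an unadjusted p under 0.05.

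Of 20 upstream regulators of D-type cyclin and p21 genes, 7 rose and 5 fell in siControl cells, where 35.5% of all genes were called. In siKctd10 cells 8 rose and 6 fell, against 36.4% of all genes. Between siRNAs 1 of the 20 passed at D0 and 4 at D2, where 2.45% and 4.75% of all genes were called. An unadjusted p under 0.05 was reached by 7 at D0 and 6 at D2, against 15.8% and 19.2% of all genes. The largest rises in siControl cells were those of Myog (4.64), Fos (1.75) and Myod1 (1.69), and the largest falls those of Fosl1 (-2.14), Id1 (-1.35) and Id2 (-0.99), the last 2 inhibitors of MyoD-type factors. Fosl1, an AP-1 subunit, was higher with siKctd10 at D0 (0.85, SE 0.17, limma adjusted p = 0.031) and at D2 (0.94, SE 0.17, limma adjusted p = 0.013). Its TPM was 10.8 to 12.6 in D0 siControl and 18.6 to 24.4 in D0 siKctd10. The Fosl1 call was lost in 11 of 22 alternatives at D0 (0.78 to 0.90, limma adjusted p up to 0.11) and in 4 at D2 (0.85 to 0.94, limma adjusted p up to 0.081). At D2 Smad3, a mediator of TGF beta signals, was also higher (0.50, SE 0.08, limma adjusted p = 0.009), and Myod1 was lower (-0.37, SE 0.06, limma adjusted p = 0.0091), as was Myog. With only the D2 groups the calls on Smad3 and Myod1 were lost (limma adjusted p = 0.053 and 0.071), and that on Smad3 also without both siKctd10 libraries numbered 2 (0.47, limma adjusted p = 0.051). Trp53 did not pass between siRNAs on either day (0.00 both times), and Myc had differences of 0.41 and 0.12 that did not pass. Between days Trp53 fell and passed in both arms, from 89.6 to 64.6 TPM in siControl and from 90.3 to 64.5 in siKctd10 cells. Myc fell and passed in siKctd10 cells, from 72.3 to 45.7 TPM, but not in siControl cells. These calls were lost in 2, 5 and 5 of 22 alternatives. No gene of the 7 lists passed the interaction with limma over all libraries or with voom. Myod1 (-0.45, limma adjusted p = 0.051) passed in 3 alternatives, genes with mean TPM of at least 5 (limma adjusted p = 0.046), median-ratio scaling (-0.49, limma adjusted p = 0.033) and identical introns only (limma adjusted p = 0.048). At an unadjusted p under 0.05 there were 4 of 20 upstream regulators, 2 of 20 E2F target genes and 1 of 10 E2F factors, against 10.0% of all genes.

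The genes with the most similar pattern to each of the 9 were found as the smallest root mean square difference of centred log2(TPM + 1) over the 12 libraries, among 9939 genes. Ccnd1 was nearest to Ccne1 (0.09), with 88.8 to 92.6 TPM in D0 siControl and 21.3 to 25.6 in D2 siControl, and then to Mybl2 (0.11). Ccnd2 was nearest to Cdr2 (0.07) and Parvb (0.09), and Ccnd3 to Fst and Gatm (0.14 each). Cdkn1a was nearest to Rnf11 and Smim10l1 (0.12 each), Rb1 to Gab1 (0.10) and Klf11 (0.11), and Rbl1 to Ska3 (0.14) and Foxm1 (0.18). The nearest genes were farther off for Cdkn1b (B4galt7, 0.18, and Imp3, 0.20), Cdkn2c (Cops7a, 0.17, and Ddx39, 0.23) and Rbl2 (Spns1, 0.33, and Bin1, 0.36), the 3 genes with the widest spread within a group. The points share libraries and depth, and the distances carry no test.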

How the data were processed

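Poly(A) RNA of 12 C2C12 libraries was analysed in 4 groups of 3 taken from the labels. Per the file headers, the authors estimated transcript abundance with StringTie 1.3.3b over 63759 known transcripts. Per the submitters' processing notes the tools were HISAT, SAMtools, DESeq2 and StringTie 1.1.3, on mm10. Further settings and strandedness are not given in the sources used here. The deposited values are coverage, FPKM and TPM per transcript. TPM sums to 1000000 in each library. No deposited counts were used, so read pairs were estimated from coverage at 202 bases per pair, and no counting interval was formed.

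Transcripts were matched to GENCODE genes on GRCm38 by identical introns (42608) or by at least 50% of exon bases (13473), and 7678 were unmatched (3.82 to 4.63% of TPM). Gene TPM is the sum over transcripts. The 13076 genes reaching 1 TPM in 3 or more libraries were fitted as log2(TPM + 1) with limma 3.58.1 in R 4.3.3 (4 group means over all 12 libraries, 8 residual degrees of freedom, trend, robust, two-sided, Benjamini-Hochberg, threshold 0.05). Fold changes are on that scale, which understates changes of low genes. The pipeline was tested on simulated data.

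The members and lists were chosen with earlier results of these data known. Besides the 10 genes and Kctd10, each list's up to 3 largest passing changes per direction and comparison were named. Cdk4, Cdk6, E2f1, Skp2, Trp53 and Myc were given where they did not pass, and Trp53 and Myc also where they passed between days. The 2 genes nearest in pattern to each member were named among those with mean TPM of at least 5, leaving out predicted models. Alternatives were a pseudocount of 0.1, no filter, mean TPM of at least 5, median-ratio scaling, voom, identical introns only, a replicate block, the 2 groups compared alone, and each library left out.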

Additional observations from a re-analysis of the deposited data

Results flagged for a closer look

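The effect of siKctd10 on Ccnd3 differed between the days. It was -0.72 on the log2 scale at D2 minus D0 (SE 0.13, limma adjusted p = 0.034). The 3 knockdown libraries lay above the 3 controls at D0 (191 to 222 against 148 to 183 TPM) and below them at D2 (297 to 309 against 374 to 409 TPM). The direction held in all 21 alternatives (-0.80 to -0.65) and the call in 8 of them.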

How the results depend on the processing

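No direction that passed the test reversed under any of 22 alternatives (21 for the interaction), of which 2, the fits without both siKctd10 libraries numbered 2 or 3, were chosen after seeing the data. Members called between days numbered 6 to 7 in siControl and 6 to 8 in siKctd10 cells. At D0 the 1 member called became 0 with only the 2 groups compared and without the libraries numbered 2 or 3, and 0 to 1 on leaving out each library. At D2 the 1 member became 0 with a pseudocount of 0.1, no filter, the 2 groups alone and without the libraries numbered 2 or 3, 2 with median-ratio scaling and with voom, and 0 to 1 on leaving out each library. For the interaction the 1 member became 0 without the libraries numbered 2 or 3 and 0 to 1 on leaving out each library. Of all genes, 320 were called at D0, 72 with 2 groups, 137 without the libraries numbered 2 and 118 to 306 on leaving out each library. At D2 621 were called, 252 with 2 groups, 305 without those numbered 2 and 315 to 682 on leaving out each library. The interaction called 97, 62 with a pseudocount of 0.1, 47 and 63 without the libraries numbered 2 and 3, and 52 to 82 on leaving out each library. For 36 named genes of the lists, 47 of 65 called differences kept their call in every alternative and none reversed. Rnf123 and Ccne2 have no value among genes with mean TPM of at least 5. The cause of these shifts was not tested beyond the fewer libraries of some fits.

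With the replicate block, members called became 0 at D2 (Ccnd3 -0.37, limma adjusted p = 0.078) and 0 for the interaction (Ccnd3 -0.72, limma adjusted p = 0.094), where 42 genes were called. The labels tie the numbers to no shared culture. Deviations of same-numbered libraries correlated at r from -0.02 to 0.21 over 18 pairs, 1 of them over 0.1, and in 8 of the 18 the own number correlated best. Median-ratio scaling moved the median over all genes from 0.118 to 0.004 between days in siKctd10 cells. The higher share of calls went from 63.5 to 51.8% there, from 60.6 to 47.6% at D0, from 59.6 to 39.4% at D2 and from 50.5 to 38.6% for the interaction. The estimated depth was sufficient to list the 9 members above 1 TPM in every library, and the split between transcripts of 1 gene is uncertain.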

Other observations

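Cdkn2a and its neighbour Cdkn2b were listed at 0 in every library, while Mtap, the next gene of that locus, had 205 to 825 TPM. Mtap was chosen after its values were seen. Its TPM was 484, 494 and 511 in D0 siControl, 546, 549 and 825 in D0 siKctd10, 205, 239 and 229 in D2 siControl, and 259, 246 and 362 in D2 siKctd10. An exact 0 in these files can be a failed estimate, and whether the locus is intact in these cells was not tested.

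Other genes share exon bases with members on the opposite strand. LTO1 shares 818 bases with Ccnd1 and had 0.256 to 7.28 TPM, and Rcbtb2 shares 105 bases with Rb1 and had at most 0.903 TPM. The levels of both overlapping genes were far below those of Ccnd1 (143 to 584 TPM) and Rb1 (55.3 to 168 TPM).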
